A study of Mus musculus with 9 samples.

Results

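Of 47729 Ensembl gene identifiers counted in bulk RNA sequencing of whole mouse retina, 10 encode regulators of the step from quiescence into the G1 phase of the cell cycle and were picked by symbol. They are the D-type cyclins Ccnd1, Ccnd2 and Ccnd3, their kinases Cdk4 and Cdk6, the growth-promoting transcription factor Myc, the retinoblastoma protein Rb1, its partner E2f1, the cyclin Ccne1 and the kinase inhibitor Cdkn1b. All 10 were found once in the table, and all 10 passed the filter on low counts in each comparison. The 9 libraries, 3 a group, came from mice on a C57Bl6/J background. The Yap CKO animals had floxed Yap alleles together with Rax-CreERT2, a Cre that tamoxifen activates in Müller cells, so that the other retinal cells keep Yap. Animals of the control group had the floxed alleles but no Cre, going by the series' design text, although their genotype entry reads Yap CKO. Both groups were injected with 4-hydroxytamoxifen at day 10 after birth and examined at day 60, 1 frozen retina a library. The C57 group was wild type, was taken at day 30 after birth and comes from a previous series by re-analysis. Both P60 groups also carry the letters MNU in their column names, which the labels do not describe as a treatment. The study's title links Yap to the exit of Müller glia, the resident support cells of the retina, from quiescence.

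A cell enters G1 when growth signals raise the D-type cyclins, which bind Cdk4 or Cdk6. These kinases phosphorylate Rb1, which then releases E2F factors, and E2F factors switch on Ccne1 and the genes of DNA replication. Cdkn1b, also called p27Kip1, blocks the cyclin E kinase and keeps cells quiescent, and Myc drives growth and the expression of several of these regulators. In the injured mouse retina Müller glia are known to raise D-type cyclins but seldom to complete the cycle.

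Levels are given as normalized counts (CPM, counts scaled to library size by TMM over the 9 libraries). Depth ranged from 13760765 to 16808499 counts for C57 and from 34739679 to 37629264 counts for the P60 groups. One C57 column could not be tied to a single sample and is called the unnumbered C57 library. Yap1, the targeted gene, stood at 61.2 ± 4.80 CPM in the controls and 20.2 ± 4.52 CPM in Yap CKO (SD, n = 3), without overlap. In C57 it stood at 26.9 ± 3.74 CPM (n = 3), below every control and overlapping Yap CKO. Every one of 9 Müller glia markers and 10 rod markers had counts in every library. The rod markers, with a summed level of 102709 to 121558 CPM in C57, were at 4071 to 21217 CPM in control and 1029 to 22504 CPM in Yap CKO. The summed level of 7 lens markers was 898 CPM in Yap CKO 3 and at most 19.1 CPM in the other libraries. The summed level of 8 gliosis markers was 75.4 to 123 CPM in C57, 1569.9 to 1756 CPM in control and 1829 to 1992 CPM in Yap CKO. Between the P60 groups no gliosis marker passed and their means differed in direction, with Gfap at 300.1 CPM in control and 630.4 CPM in Yap CKO and Lif at 168 and 69.7 CPM, and their mean log2 level overlapped. The summed level of the Müller glia markers was 7537 to 7761, 3764 to 4078 and 3093 to 4159.8 CPM in the same order of groups, and that of 10 microglia markers 111 to 128, 108 to 121 and 100.3 to 142 CPM. The part of cell content in the results that follow was not tested, apart from the rod covariate given with them. By Y-linked and Xist counts all 3 controls, Yap CKO 3 and C57 2 were male and the other libraries female. In whole retina, a change in how many cells express a gene and a change per cell cannot be told apart.

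The P60 libraries of both genotypes carried far more transcript of the genes that push a cell into G1 than the C57 libraries, while the levels of Cdkn1b and Rb1 overlapped between all groups. In control against C57, 8 of the 10 genes rose, none fell and Rb1 and Cdkn1b did not pass. In Yap CKO against C57 the counts were again 8 higher and 0 lower. Over all genes tested, 45.5% were called in the former comparison (23.1% higher, 22.4% lower) and 40.5% in the latter (20.3% higher, 20.2% lower), by edgeR's quasi-likelihood test at an adjusted p under 0.05. The median log2 fold change of the 10 genes was 2.13 for control and 1.30 for Yap CKO, beside medians of 0.032 and 0.0165 over all genes tested. Both comparisons use the same C57 libraries, and age, floxed allele, tamoxifen, source series, depth and whatever MNU denotes cannot be told apart in them. Between the P60 genotypes, 0 of the 10 genes passed, where 0.2% of all genes did (0.181% lower). The 8 genes called against C57 also did not overlap with it in either P60 group, where 58.8% of all genes did not for control and 55% did not for Yap CKO. Ccnd1, Ccnd2, Cdk6 and Myc lay lower in every Yap CKO library than in any control, and Cdk4 lay higher. Over all genes, 11.8% lay lower and 13.5% higher in this way.

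**Figure D1:**
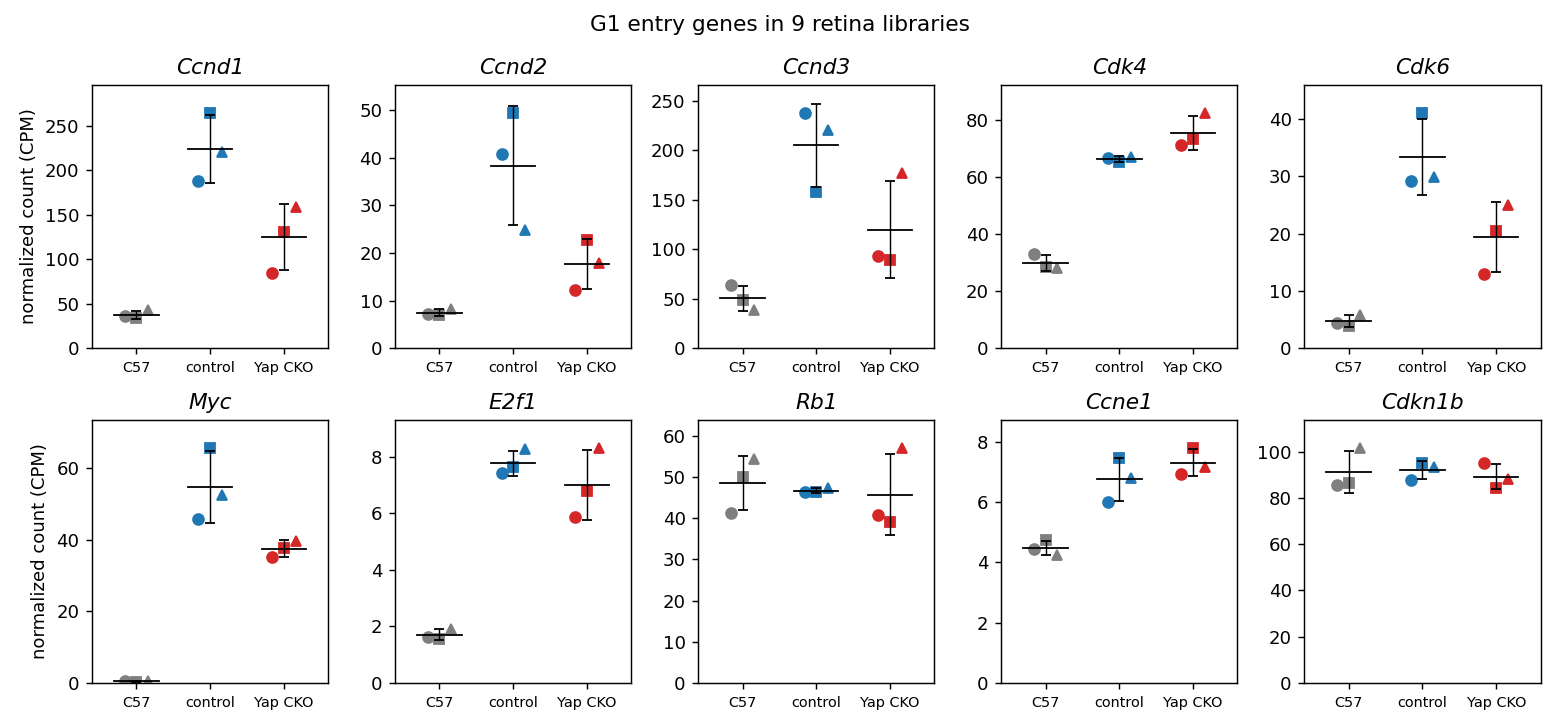
Normalized counts (CPM, vertical axis, from 0) of the 10 genes in the C57, control and Yap CKO libraries. Points are single libraries (circle, square and triangle, in the order of the libraries), and black bars are the mean and SD over 3 libraries. Ccnd1, Ccnd2, Cdk4, Cdk6 and Myc do not overlap between any pair of groups, whereas Rb1 and Cdkn1b overlap in all.

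Ccnd1, the D-type cyclin known for its role in retinal progenitors (ENSMUSG00000070348, chromosome 7, 144929931 to 144939925, minus strand, GRCm38), had 36.4, 34.1 and 42.8 CPM in C57 1, C57 2 and the unnumbered C57 library. In control 1, 2 and 3 it had 188, 265 and 220.3 CPM, and in Yap CKO 1, 2 and 3 84.9, 131 and 158 CPM. The 3 groups did not overlap, with the Yap CKO libraries between C57 and control. The gene rose 6.02-fold from C57 to control (log2 2.59, SE 0.165, edgeR adjusted p = 3.32e-05) and 3.31-fold from C57 to Yap CKO (log2 1.73, SE 0.227, adjusted p = 0.000735). Against control, Yap CKO had a log2 difference of -0.85 with a 95% interval of -1.48 to -0.22, which did not pass over all genes (adjusted p = 0.182). Within each P60 group the Ccnd1 level ran opposite to the mean log2 level of the rod markers, which was 9.83, 7.62 and 8.84 in control 1, 2 and 3 and 9.94, 9.03 and 5.87 in Yap CKO 1, 2 and 3. With that rod level as a covariate the Yap CKO difference was log2 -0.96 and passed (adjusted p = 0.0117). That fit called 763 genes higher and 903 lower over all. With sex as a covariate instead, the difference was log2 -0.50. LTO1 on the opposite strand shares 23.4% of the Ccnd1 exon length and averaged 20.7, 17.2 and 18.7 CPM in C57, control and Yap CKO.

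Ccnd2, the second D-type cyclin (ENSMUSG00000000184, chromosome 6, 127125162 to 127152193, minus strand), was the rarest of the family. It had 7.11, 6.96 and 8.24 CPM in the C57 libraries in the same order, 40.9, 49.4 and 24.8 CPM in control 1, 2 and 3 and 12.2, 22.7 and 17.8 CPM in Yap CKO 1, 2 and 3. Control 3, the lowest control, lay close to Yap CKO 2, the highest of its group. Ccnd2 rose 5.22-fold in control and 2.37-fold in Yap CKO against C57 (adjusted p = 0.000326 and 0.00436). Its Yap CKO difference from control had the largest size of the 10 genes, at log2 -1.13 (95% interval -1.97 to -0.29, adjusted p = 0.183).

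Ccnd3, the D-type cyclin that is widely expressed in differentiated tissue (ENSMUSG00000034165, chromosome 17, 47505051 to 47599691, plus strand), had 63.9, 48.6 and 38.5 CPM in C57, 237, 158 and 220.0 CPM in control and 93.4, 89.1 and 177 CPM in Yap CKO. Yap CKO 3 exceeded control 2, so the P60 groups overlapped. The rise against C57 was 4.14-fold in control (adjusted p = 0.000317) and 2.39-fold in Yap CKO (adjusted p = 0.0110). The latter call was lost without C57 2 (adjusted p = 0.0501) or the unnumbered C57 library (0.0587). Yap CKO differed from control by log2 -0.78 (95% interval -1.59 to 0.034, adjusted p = 0.297). Yap CKO 3 was the only male of its group and had high lens and low rod transcripts. Without it the difference was -1.17 and passed (adjusted p = 0.0353). That fit set females against males and called 656 genes higher and 817 lower over all. With sex as a covariate and Yap CKO 3 kept, the difference was -0.22. The parts of lens content, rod content and sex in this were not tested beyond these values.

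Start-site windows from RefSeq (250 bases before to 50 after the start, GRCm38.p6) were used for 6 of the 10 genes, namely E2f1, Cdk6, Cdkn1b, Ccne1, Cdk4 and Ccnd3, with 2 windows for Ccnd3. Windows of Ccnd1, Ccnd2, Myc and Rb1 were not analysed here. The E2f1 window, chr2:154569377-154569676 on the minus strand, lies wholly inside the annotated gene, which begins upstream at 154569892. The Cdk6 window and the downstream Ccnd3 window also lie inside their annotated genes. Stretches before the outermost annotated starts of E2f1 and Cdk6 were not searched. The downstream window of Ccnd3 is shown because it alone among the 7 holds the letters GGAATG (here on the minus strand, as CATTCC), the core bound by TEAD factors, the DNA-binding partners of Yap. Capitals mark that place and, just before it, TGACGT, the core of the cyclic AMP response element. The window lies at chr17:47593217-47593516, plus strand.

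Ccnd3: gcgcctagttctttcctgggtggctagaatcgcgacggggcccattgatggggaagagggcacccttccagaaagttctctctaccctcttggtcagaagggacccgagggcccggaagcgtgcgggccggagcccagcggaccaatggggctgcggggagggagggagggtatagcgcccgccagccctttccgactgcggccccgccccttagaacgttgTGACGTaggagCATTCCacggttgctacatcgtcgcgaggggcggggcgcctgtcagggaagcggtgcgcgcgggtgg

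GGAATG, searched on both strands, stood in 14.7% of all 32851 windows of this length and TGACGT in 7.51%, so either is common. TGACGT also stood in the E2f1 window, which lies inside that gene. The AP-1 letters TGANTCA (7.81% of all windows) stood in none of the 7. The same held for the E2F letters TTTCGCGC, TTTGGCGC, TTTCCCGC or TTTGCCGC (2.26% of all windows), which says only that these letters are not in these windows.

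Per kilobase of exon, Ccnd1 held the largest share of the D-type cyclin pool in each library. That order depends on the lengths used, all annotated exons merged, at 4709 bases for Ccnd1 and 8775 for Ccnd3. In raw counts Ccnd3 exceeded Ccnd1 in C57 1, C57 2, control 1, Yap CKO 1 and Yap CKO 3, and lay below it in the other libraries. Per kilobase, Ccnd1 made up 49.0%, 53.6% and 63.3% of the summed D-type cyclin signal in the C57 libraries, 55.9%, 70.7% and 62.8% in the controls and 60.1%, 68.9% and 60.5% in Yap CKO. Ccnd3 held 46.2%, 40.9% and 30.6%, 38.0%, 22.7% and 33.7% and 35.5%, 25.1% and 36.1% in the same order, and Ccnd2 between 3.40% and 6.61% in all 9 libraries. The Ccnd1 share averaged 55.3% ± 7.31 in C57, 63.2% ± 7.40 in control and 63.2% ± 4.98 in Yap CKO (SD, n = 3), which puts C57 7.84 percentage points below control. The Ccnd3 share averaged 39.2%, 31.4% and 32.3% in the same order. Exact permutation tests (two-sided, smallest possible p = 0.1) gave in 9 tests p from 0.3 to 1.00 and 0.720 or more after adjustment, and tests of this size cannot pass 0.05 whatever the data. All groups overlapped in the Ccnd1 share.

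**Figure D2:**
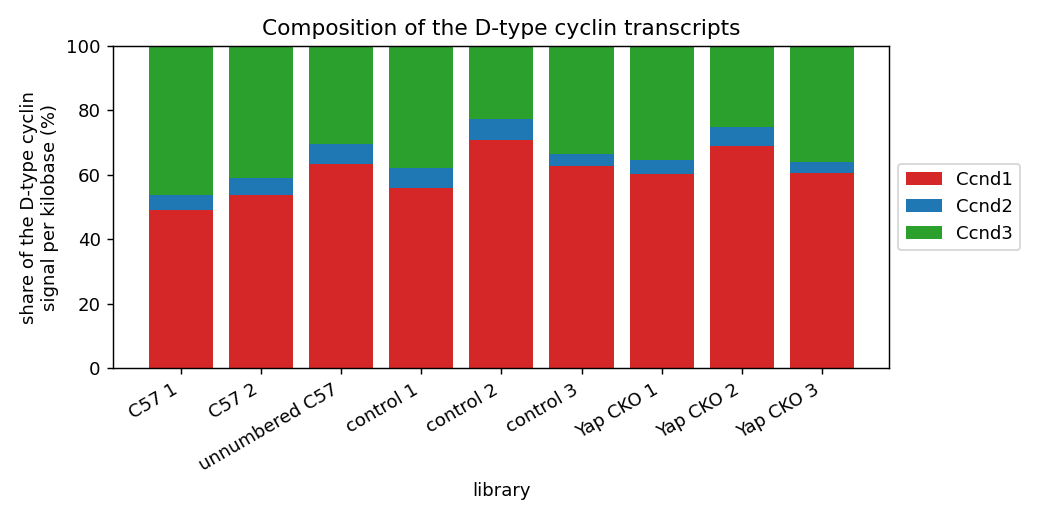
Share (percent, vertical axis) of Ccnd1, Ccnd2 and Ccnd3 in the summed level per kilobase of the D-type cyclins, 1 bar for each of the 9 libraries. Ccnd1 holds 49.0% to 70.7% and Ccnd2 3.40% to 6.61% of each bar, and the Ccnd1 shares of the 3 groups overlap.

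Of the kinases, Cdk6 lay lower and Cdk4 higher in Yap CKO than in control, without passing. Cdk6 (ENSMUSG00000040274, chromosome 5, 3341485 to 3531008, plus strand) had 4.37, 3.92 and 5.82 CPM in C57, 29.2, 41.0 and 29.9 CPM in control and 12.9, 20.5 and 25.0 CPM in Yap CKO, and no groups overlapped. It rose 7.18-fold in control and 4.14-fold in Yap CKO against C57 (adjusted p = 6.82e-05 and 0.000891). Between the genotypes it differed by log2 -0.78 (95% interval -1.45 to -0.12, adjusted p = 0.218). Its ranking of the 6 P60 libraries was the same as that of Ccnd1 and of Myc, from control 2 at the top to Yap CKO 1 at the bottom.

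Cdk4 (ENSMUSG00000006728, chromosome 10, 127063534 to 127067920, plus strand) rose in both P60 groups, with its higher level in Yap CKO. It had 33.1, 28.3 and 28.1 CPM in C57, a narrow 66.7, 65.0 and 66.7 CPM in control and 71.1, 73.0 and 82.3 CPM in Yap CKO. Yap CKO libraries were thus the highest of all. Cdk4 rose 2.25-fold in control and 2.54-fold in Yap CKO against C57 (adjusted p = 0.000164 and 0.000204), and the genotypes differed by log2 0.19 (95% interval 0.018 to 0.35, adjusted p = 0.239). About 19.7% of its exon length is shared with Tspan31 on the opposite strand, which had 128, 113 and 119 CPM on average in C57, control and Yap CKO. Reads of that stretch are uncertain, since no source used here gives the strand setting of the counting.

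The start-site windows of the kinases are shown because both hold the E-box CACGTG, the letters that Myc with its partner Max binds, and Myc had the largest rise of the 10 genes. Capitals mark each CACGTG. The Cdk4 window is chr10:127063285-127063584, plus strand and the Cdk6 window chr5:3343643-3343942, plus strand.

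Cdk4: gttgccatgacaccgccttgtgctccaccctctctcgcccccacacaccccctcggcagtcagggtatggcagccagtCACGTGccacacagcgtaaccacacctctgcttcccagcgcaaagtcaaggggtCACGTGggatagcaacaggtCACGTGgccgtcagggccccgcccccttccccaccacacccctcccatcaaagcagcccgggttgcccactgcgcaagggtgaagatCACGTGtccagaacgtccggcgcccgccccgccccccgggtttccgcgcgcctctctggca

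Cdk6: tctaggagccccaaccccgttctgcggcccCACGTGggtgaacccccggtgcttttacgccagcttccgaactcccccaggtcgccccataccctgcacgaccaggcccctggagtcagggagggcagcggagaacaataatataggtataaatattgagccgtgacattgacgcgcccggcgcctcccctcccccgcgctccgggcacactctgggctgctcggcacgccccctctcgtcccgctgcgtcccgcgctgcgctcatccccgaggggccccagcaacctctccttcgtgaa

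The Cdk4 window holds CACGTG at 4 places, which begin 172, 118, 98 and 11 bases before the start, and the Cdk6 window at 1. CACGTG, which reads the same on both strands, stood in 7.15% of all windows, and at 4 or more places in 8 of 32851 windows, from 6 genes. These are matches of letters and not measured binding.

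Myc (ENSMUSG00000022346, chromosome 15, 61985391 to 61990374, plus strand) was nearly absent in C57 and abundant in both P60 groups. It had 5, 4 and 6 counts in the C57 libraries, or 0.428, 0.296 and 0.426 CPM. In control it had 45.8, 65.6 and 52.4 CPM and in Yap CKO 35.0, 37.7 and 39.7 CPM. The rise was 143-fold in control (log2 7.16, SE 0.250, adjusted p = 5.06e-06) and 97.2-fold in Yap CKO (log2 6.60, SE 0.212, adjusted p = 4.94e-06), with 15 counts in all behind the C57 side. Yap CKO lay below control by log2 -0.55 (95% interval -0.86 to -0.23). That was the smallest adjusted p of the 10 genes between genotypes, at 0.116, and it did not pass. The spread was narrow in Yap CKO (37.5 ± 2.34 CPM) and wider in control (54.6 ± 10.1 CPM).

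Downstream of the cyclin kinases, E2f1, the transcription factor held back by Rb1 (ENSMUSG00000027490, chromosome 2, 154559407 to 154569892, minus strand), had 1.63, 1.55 and 1.92 CPM in C57, 7.42, 7.63 and 8.26 CPM in control and 5.86, 6.80 and 8.31 CPM in Yap CKO. The P60 groups overlapped and both lay above C57. E2f1 rose 4.62-fold in control and 4.11-fold in Yap CKO (adjusted p = 7.76e-05 and 0.000366), with a difference between genotypes of log2 -0.16 (95% interval -0.50 to 0.19, adjusted p = 0.635). Ccne1, the cyclin that E2F factors induce late in G1 (ENSMUSG00000002068, chromosome 7, 38097984 to 38107534, minus strand), was scarce, with 4.46, 4.74 and 4.26 CPM in C57, 6.02, 7.46 and 6.81 CPM in control and 6.95, 7.81 and 7.17 CPM in Yap CKO. It had the smallest rise among the 8, at 1.53-fold in control and 1.63-fold in Yap CKO (adjusted p = 0.0152 and 0.0133). Its call in control was lost without control 2 (adjusted p = 0.0606) or control 3 (0.0605) and with sex as a covariate (0.156), and that in Yap CKO without Yap CKO 2 (0.0654).

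For the brakes on G1 entry, Cdkn1b and Rb1, no difference was detected in any comparison. Cdkn1b (ENSMUSG00000003031, chromosome 6, 134920401 to 134925513, plus strand) had 85.7, 86.7 and 102 CPM in C57, 87.7, 95 and 93.5 CPM in control and 95, 84.3 and 88.4 CPM in Yap CKO, and all groups overlapped. Its log2 differences were 0.032 for control against C57 (95% interval -0.23 to 0.29), -0.029 for Yap CKO against C57 (-0.32 to 0.26) and -0.051 for Yap CKO against control (-0.21 to 0.11). Rb1, the pocket protein that holds E2F factors (ENSMUSG00000022105, chromosome 14, 73183673 to 73325822, minus strand), had 41.4, 49.97 and 54.5 CPM in C57, 46.5, 46.5 and 47.3 CPM in control and 40.9, 39.2 and 57.1 CPM in Yap CKO. The controls were nearly equal, and Yap CKO 3 was the highest of all libraries. The Rb1 intervals were -0.33 to 0.25, -0.50 to 0.33 and -0.37 to 0.29 in the same order of comparisons. The sign of the small Rb1 and Cdkn1b differences flipped under some other scalings or filters or when a library was left out.

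**Figure D3:**
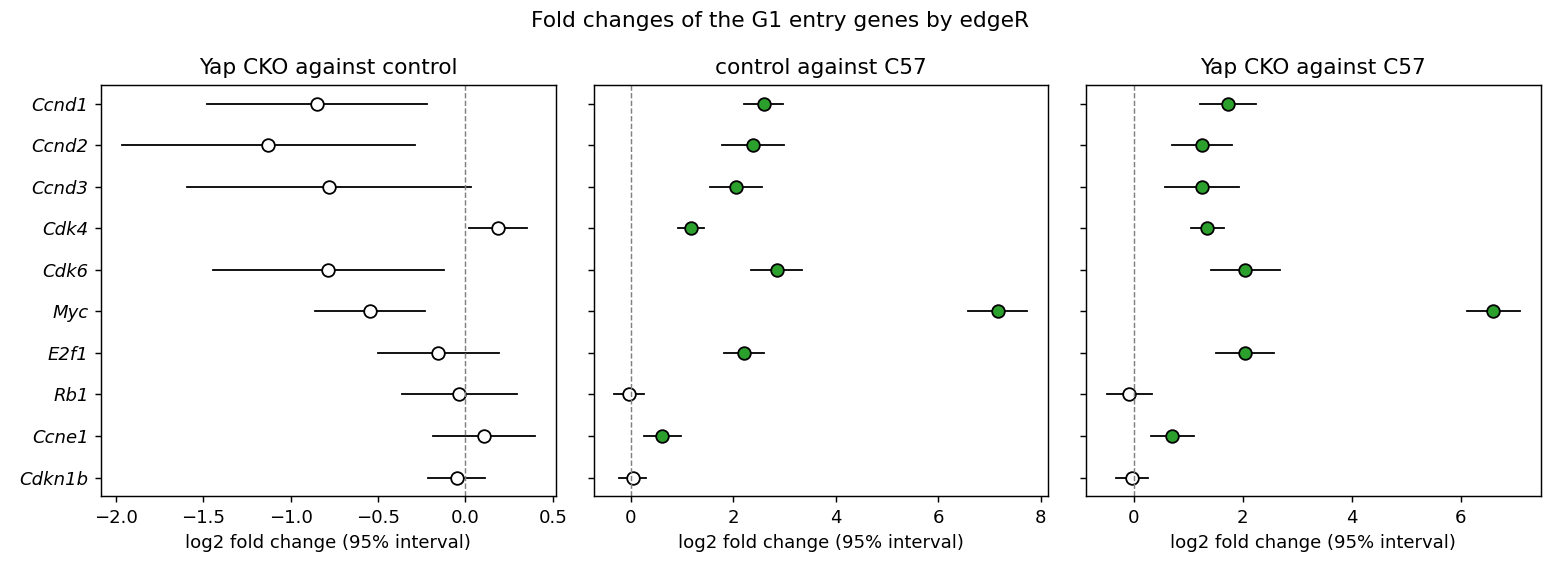
Log2 fold changes (horizontal axis) of the 10 genes in the 3 comparisons, with 95% intervals from edgeR and filled points where the adjusted p was under 0.05. The horizontal scales differ between panels. In both comparisons with C57, 8 points are filled, with Myc farthest right, and in Yap CKO against control none is filled although the intervals of Ccnd1, Ccnd2, Cdk6 and Myc lie below 0 and that of Cdk4 above.

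The ranking of the genes by level per kilobase of exon changed between C57 and the P60 groups. In C57, Cdkn1b led with 20.1 CPM per kilobase, above Cdk4 at 9.18, Rb1 at 8.08, Ccnd1 at 8.03 and Ccnd3 at 5.74, and neighbours from Cdk4 down to Ccnd3 overlapped. Myc was last with 0.141. In control Ccnd1 led with 47.6 CPM per kilobase, without overlap with the next gene. Ccnd3 at 23.4, Cdk4 at 20.4, Cdkn1b at 20.2 and Myc at 20.1 followed as a group whose neighbours overlapped. In Yap CKO Ccnd1 at 26.5 overlapped Cdk4 at 23.2, ahead of Cdkn1b at 19.6, Myc at 13.8 and Ccnd3 at 13.6. Ccnd2 and Cdk6 were among the lowest in each group, at 0.790 and 0.336 in C57, 4.08 and 2.39 in control and 1.87 and 1.39 in Yap CKO.

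Among 11403 genes with a mean of at least 5 CPM, the gene whose profile over the 9 libraries was most like that of Ccnd1 was its kinase partner Cdk6. The measure was the root mean square difference of log2(CPM + 1) profiles, each centred on its own mean, and it was 0.0885 for Cdk6 against a median of 1.10 over all genes. The next were the serine protease gene Prss23 (0.218) and the homeobox gene Tgif1 (0.232). For Ccnd2 the nearest were Rnd1, Arrdc4 and Ctsc (0.265, 0.275 and 0.291, median 0.961). For Myc they were the cytokine gene Clcf1, the stress gene Gadd45b and the receptor gene Tnfrsf12a (0.225, 0.302 and 0.302, median 2.40). All profiles share the same 9 libraries and the step between C57 and P60, and the values are a description. The added 1 CPM shrinks differences at low levels, and in C57 Cdk6 averaged 4.71 CPM where Ccnd1 averaged 37.8 CPM. By edgeR, which does not use that offset, control against C57 was log2 2.84 for Cdk6 and 2.59 for Ccnd1.

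**Figure D4:**
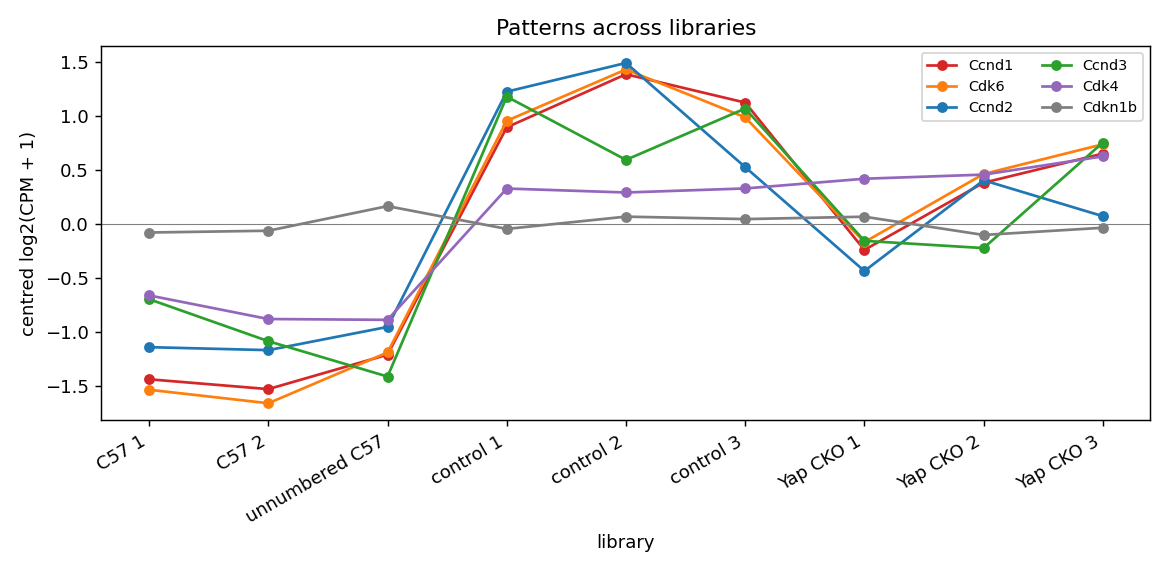
Log2(CPM + 1) of 6 genes, centred on each gene's mean (vertical axis), over the 9 libraries (horizontal axis). Ccnd1 and Cdk6 follow each other through every library. Ccnd3 lies above them in C57 1 and C57 2 and below them in control 2 and Yap CKO 2. Cdk4 varies little within each P60 group and is somewhat higher in Yap CKO, and Cdkn1b stays near 0 throughout.

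The call between genotypes depended on the tool. Over the 10 genes, 8 had negative log2 differences (47.7% of all genes tested did) with a median of -0.35, beside 0.011 over all genes. At an unadjusted p under 0.05, 4 were lower and 1 higher by edgeR, where 17.8% of all genes were past that limit (9.25% lower), and 5 of 10 did not overlap, 4 lower and 1 higher, where 25.3% of all genes did not (11.8% lower, 13.5% higher). DESeq2 called Ccnd1, Ccnd2, Cdk6 and Myc lower (adjusted p = 0.00382, 0.00167, 0.0210 and 0.00732), and limma-voom called none. With the rod level as a covariate edgeR called Ccnd1, Cdk6 and Myc lower, but that fit called 763 genes higher and 903 lower over all. In the authors' deposited table of 305 genes for this comparison, 4 of the 10 appeared, with log2 fold changes of -0.84 for Ccnd1, -1.12 for Ccnd2, -0.78 for Cdk6 and -0.77 for Ccnd3 and adjusted p-values of 0.00982, 0.00203, 0.0782 and 0.139. No gene of the authors' deposited table had a log2 fold change under 0.587 in size, and Myc, at -0.55 here, lies under that. Both sets of values come from the same libraries. With sex as a covariate, which leaves Yap CKO 3 alone to stand for the genotype among the males, the log2 differences were -0.50 for Ccnd1, -1.11 for Ccnd2, -0.22 for Ccnd3, -0.42 for Cdk6 and -0.46 for Myc, none of which passed. Those of Ccnd1, Ccnd3 and Cdk6 were then over 1.5 times smaller.

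Of 28 further genes of the G1 to S machinery 25 were tested, and in control against C57 8 rose, 3 fell and 14 did not pass, where 23.1% of all genes tested were called higher and 22.4% lower. All controls were male, and C57 2 was the only male of its group. With sex as a covariate this comparison therefore rests on C57 2. The 8 became 4 with sex as a covariate, and the 3 ranged from 1 (sex as a covariate, or without C57 2) to 7 (DESeq2), with 5 without C57 1. Over all genes, sex as a covariate took the higher calls from 3655 to 1728 and the lower calls from 3547 to 1874. The largest rise was that of Cdkn1a, which encodes the kinase inhibitor p21, from 7.63 ± 1.92 to 129 ± 20.1 CPM (log2 4.10, adjusted p = 1.83e-05), and it stood at 120.3 ± 4.06 CPM in Yap CKO (n = 3 each). Cks1b, a small subunit of cyclin kinases, and Cdk2, the partner of Ccne1, rose by log2 2.22 and 1.53 in control and 2.53 and 1.38 in Yap CKO, from levels of 0.832 ± 0.273 and 1.30 ± 0.0295 CPM in C57. Members of this list thus went both ways: among those that fell in control were Ccne2, the second cyclin E (log2 -0.80), Cdkn1c, which encodes the inhibitor p57 (-0.68), and the pocket protein gene Rbl2 (-0.66). Yap CKO against C57 gave 7 higher and 5 lower, where 20.3% and 20.2% of all genes were called. The 5 became 1 without C57 2, Yap CKO 2 or Yap CKO 3, 2 without Yap CKO 1, 3 without the unnumbered C57 library and 9 with all 9 libraries in 1 fit. The 5 also became 3 with upper-quartile scaling, 1 with scaling to bipolar and amacrine markers and 2 without a count filter. Against control, Yap CKO had none of 25 past the threshold by edgeR, DESeq2 or limma-voom, with E2f3 at log2 -0.30, Cks1b at 0.33 and Cdk7 at -0.17. At an unadjusted edgeR p under 0.05, 1 was higher and 1 lower, where 17.8% of all genes were past that limit. E2f3 alone was called, lower, with the rod level as a covariate (log2 -0.32) and without Yap CKO 3 (-0.38).

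In the Myc network of 11 partners and antagonists, 10 were tested. In control against C57, 3 rose and 4 fell, and in Yap CKO 2 rose and 4 fell, beside the same shares of all genes. For control the 3 became 1 without control 3 and, with sex as a covariate, the 4 became 1. In Yap CKO the 2 became 1 without C57 2 or any 1 Yap CKO library, and the 4 became 1 without C57 2 or Yap CKO 2 and 2 without Yap CKO 1 or Yap CKO 3. These 4 also became 2 with upper-quartile scaling or sex as a covariate and 1 with scaling to bipolar and amacrine markers. Mycn, a paralog of Myc, rose by log2 0.80 in control and 1.00 in Yap CKO, while Mxd1 and Mxi1, which compete with Myc for Max, fell by 0.66 and 0.48 in control and by 0.66 and 0.52 in Yap CKO on the log2 scale. Max itself fell by 0.31 in control on the log2 scale. The other called genes of the network went both ways in control: Mnt and Mlxip rose by log2 0.54 and 0.77, and Mxd4 fell by 0.56. Of 14 growth genes known to respond to Myc, 12 rose in control and 11 in Yap CKO, where 23.1% and 20.3% of all genes were called higher. With sex as a covariate the 12 became 5, while the higher calls over all genes dropped from 3655 to 1728. Among the growth genes that rose were the nucleolar genes Gnl3 (log2 1.51 and 1.43), Nop56 (0.71 and 0.80) and Bop1 (1.02 and 1.24). Ldha, the lactate dehydrogenase that is abundant in photoreceptors, fell from 1719.6 ± 209.6 to 699.8 ± 104 CPM in control and 742 ± 129 CPM in Yap CKO, while the rod markers were at the lower levels given above. Between genotypes none of the 24 tested genes of these lists passed by edgeR, DESeq2 or limma-voom, while edgeR with the rod level as a covariate called Bop1 higher (log2 0.21) and Nop58 lower (-0.20). At an unadjusted p under 0.05 in the main edgeR fit, 4 were higher and 3 lower, where 17.8% of all genes were past that limit. The smallest p-values were those of Mga, Mxd4, Wdr43, Nop58 and Bop1, at log2 -0.26, 0.18, -0.20, -0.19 and 0.24. The medians were 0.0026 for the network and 0.022 for the growth genes on the log2 scale.

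Of 18 DNA replication genes that E2F factors activate, 15 were tested against C57, and 5 rose and 1 fell in control, while 3 rose and 1 fell in Yap CKO, where 23.1% and 20.3% of all genes were called higher. The 5 became 2 without any 1 of the controls and 1 with sex as a covariate, and the 1 that fell became 2 without C57 1. Over all genes the higher calls in control against C57 also dropped, from 3655 to between 2546 and 2789 without 1 control. With sex as a covariate they dropped further, to 1728. In Yap CKO the 3 became 5 with all 9 libraries in 1 fit, and the 1 that fell was lost without C57 2. Cdt1, which licenses replication origins, had 1.97, 1.33 and 1.28 CPM in C57 and rose to 9.93 ± 1.37 CPM in control and 6.76 ± 1.35 CPM in Yap CKO (log2 2.73 and 2.16). The helicase subunit gene Mcm6 rose by log2 0.89 and 0.98, and Rrm1, a subunit of ribonucleotide reductase, fell by 0.63 and 0.61 on the log2 scale. The median over the tested genes of the list was log2 0.28 in both comparisons. Between genotypes none of 17 passed by edgeR. At an unadjusted edgeR p under 0.05, 1 was higher and 1 lower, where 17.8% of all genes were past that limit. Cdt1 was at log2 -0.56 (edgeR adjusted p = 0.160) without overlap, which held for 25.3% of all genes. It was the 1 gene of the list that DESeq2 called, beside 559 called lower over all genes, while limma-voom called none of the list. Mcm7 was at 0.23 and Cdc6 at -0.38.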

How the data were processed

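RNA was measured in 9 libraries of whole mouse retina, 3 a group. The deposited count table holds raw read counts per gene, judged from its values, which are whole numbers with different totals. Per the submitters' processing notes, which list names without roles, HISAT2 2.1.0, featureCounts and edgeR were used with build GRCm38. No source used here gives the annotation release or strand setting. The authors' deposited comparison table gives log2 fold changes and p-values per the file headers, and its 9 columns of per-library values were not used. Positions and exon lengths are from GENCODE M21 (GRCm38), and symbols were found for 47224 of 47729 identifiers.

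Each comparison was fitted on its 6 libraries with edgeR 4.0.16 (R 4.3.3): filterByExpr (minimum count 10, minimum total 15), TMM scaling and robust quasi-likelihood F-tests with the older statistics, adjusted by Benjamini-Hochberg over all genes tested. SE is the absolute log2 fold change divided by the root of F. The test was tried on simulated data. Alternatives included DESeq2 1.42.0 and limma-voom (limma 3.58.1). The members, lists, tests and alternatives were chosen with earlier results of these data known. The genes named were all 10 members, up to 3 of each list and comparison by smallest edgeR p, and the 3 nearest patterns of Ccnd1, Ccnd2 and Myc. Ccne2, Cdkn1c, Rbl2, Max, Mnt, Mlxip and the Mxd4 value against C57 were added after their values were seen. Nothing says that the retinas of a group came from separate animals, so p-values measure only the spread between these samples. No duplicate libraries were found.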

Additional observations from a re-analysis of the deposited data

How the results depend on the processing

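Against C57, the 8 higher and 0 lower genes stayed within 1.5 times that count under all 17 alternatives of each comparison. Calls were lost only for Ccnd3 and Ccne1, in the fits named above. Between genotypes, the count of lower genes was 0 as reported, 4 with DESeq2, 3 with the rod level as a covariate and 0 to 1 when each library was left out, the 1 being Ccnd3 without Yap CKO 3, and the count of higher genes was 0 throughout. Over all genes, the lower calls were 30 as reported, 559 with DESeq2, 903 with the rod level and 817 without Yap CKO 3. Scaling to bipolar and amacrine markers moved the median of all genes to log2 0.11 in that comparison. Its Ccnd1, Ccnd2, Cdk6 and Myc differences were then -0.78, -1.03, -0.71 and -0.46.

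The counts of the other lists against C57 moved more, as given with them: over all alternatives the lower genes of the G1 to S machinery ranged from 1 to 7 in control and 1 to 9 in Yap CKO. Differences near 0 changed sign. Between genotypes, Rb1 was at log2 0.0063 with upper-quartile scaling, 0.032 with the neuron markers, 0.29 with sex as a covariate and -0.23 to 0.056 when single libraries were left out. Cdkn1b was at 0.044 with the neuron markers, and E2f1 at 0.095 with sex as a covariate. In control against C57, Cdkn1b was at -0.0053 with the neuron markers, Rb1 at 0.0081 without a count filter, and leaving out single libraries gave -0.14 to 0.056 for Rb1 and -0.011 to 0.12 for Cdkn1b. In Yap CKO against C57, Cdkn1b was at 0.024 with upper-quartile scaling and 0.031 without a filter, and leaving out single libraries gave -0.27 to 0.023 for Rb1 and -0.077 to 0.052 for Cdkn1b. The causes were not tested.

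On raw counts the Ccnd1 share differed by -0.094 percentage points between genotypes and the Ccnd2 share by 0.327 between control and C57, against 0.00589 and -0.0418 per kilobase. Leaving out single libraries gave -3.60 to 3.79 (Ccnd1) and -3.55 to 4.41 (Ccnd3) between genotypes and -0.639 to 0.896 (Ccnd2) for control against C57.

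Same-numbered control and Yap CKO libraries correlated in their deviations from the group means at 0.53, -0.077 and 0.010, and not every library correlated best with its own number. A pairing by number was thus not shown. These values cannot exclude one, since the deviations also carry the spread of rod levels within each group. With the replicate block, 0 of the 10 genes passed in either direction (Ccnd1 at log2 -0.88, Ccnd2 at -1.12 and Myc at -0.53), and 3 genes were higher and 42 lower over all, against 3 and 30. Over all genes, the higher and lower calls between genotypes were 360 and 559 with DESeq2, 1 and 15 with limma-voom, 83 and 260 without a count filter, 43 and 24 with sex and 763 and 903 with the rod level as a covariate, 0 and 0 with scaling to the neuron markers or without control 1 or control 2, and 656 and 817 without Yap CKO 3. Without a count filter the median of all genes was log2 0.19 for control and 0.23 for Yap CKO against C57. Depth limits Myc in C57, with 4 to 6 counts a library, and the comparisons with C57 rest on its shallower libraries.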
